A study of Mus musculus with 7 samples.

Results

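Cycling alveolar macrophages are the resident macrophages of the airspace that carry transcripts of cell division. They were selected on raw counts of unique molecular identifiers (UMIs, each 1 captured RNA molecule) in 7 mouse lung libraries. A barcode was kept with at least 600 UMIs, at least 300 genes and a mitochondrial share of its UMIs of at most 20%. An alveolar macrophage had at least 3 UMIs over Marco, Krt79, Plet1, Atp6v0d2 and Siglecf, at least 2 of Chil3, at most 1 of C1qa and at most 1 over Cd3d, Cd3e and Cd3g. It was cycling with at least 3 UMIs over Top2a, Mki67, Birc5 and Ube2c. These terms found 470 cycling cells among 6428 alveolar macrophages and 50955 kept cells. Each of the 470 entered the sums described here, and the other 5958 alveolar macrophages served as the non-cycling cells.

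The libraries came from a study of lungs in which Smad4 can be deleted. Mice of the 3 Smad4fl/fl samples carried floxed Smad4 alleles and no Cre. Those of the 4 Smad4iko samples carried the same alleles with creERT2 at the Rosa26 locus, which is active in nearly all cell types. Tamoxifen was injected 5 times at 75 mg/kg into both groups, from postnatal day 21 to day 26. Lung distal to the hilum was collected at 8 weeks of age. The labels number the samples without saying that each is a separate animal, so p-values here measure the spread between samples. Each sample is 1 single-cell library. Xist and Ddx3y mark the libraries Smad4fl/fl 3 and Smad4iko 3 as female, and the remaining 5 as male.

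Alveolar macrophages take up and break down surfactant and inhaled particles, and they are known to maintain themselves in the lung by local division under GM-CSF. A dividing cell first licenses and copies its DNA in S phase, a programme driven by E2F factors. It then builds up cyclin B with CDK1 in G2, condenses its chromosomes and separates them on the spindle in mitosis. TGF-beta family signals, which SMAD4 carries into the nucleus, are known to be needed for alveolar macrophages to form and persist.

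The library totals ran from 46449235 to 66557262 UMIs. Several libraries stood apart before any comparison. On the first principal component of the summed cycling cells, which held 34.1% of the variance, Smad4iko 3 and 4 lay at 30.8 and 29.6 and the other 5 libraries between -26.1 and -0.57. These 2 libraries belong to 1 genotype, so what sets them apart and the genotype cannot be told apart within them. Erythroid markers summed to 5939 CPM in the cycling cells of Smad4iko 3 and at most 209 in the other libraries, where CPM are the UMIs summed over the cells named, scaled to a total of 1000000. Smad4fl/fl 1 had the highest sums of endothelial and mesenchymal markers in cycling cells, 545 and 149 CPM, against at most 133 and 10.0 elsewhere. Of 50615 barcode sequences among kept cells, 339 (0.670%) occurred in more than 1 library. Among the 470 sequences of cycling alveolar macrophages, 0 marked a cycling cell in more than 1 library.

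The markers of alveolar macrophages are given as levels, since the selection used all of them but Ear1 and Mrc1. Summed over Marco, Chil3, Krt79, Plet1, Atp6v0d2, Siglecf, Ear1 and Mrc1, the cycling cells measured 9551 to 15467 CPM per library. This was below the non-cycling cells of the same library each time, which measured 11850 to 17337 CPM. Ear1 and Mrc1, which the selection did not use, encode an eosinophil-associated ribonuclease and the mannose receptor. Ear1 stood at 311 to 785 CPM and Mrc1 at 717 to 910, against 496 to 1532 and 966 to 1289 in non-cycling cells. Interstitial macrophage markers, among them C1qb, C1qc and Cx3cr1, summed to 11.3 to 27.3 CPM in Smad4fl/fl and 10.1 to 33.3 in Smad4iko, classical monocyte markers to 16.6 to 59.2 and 19.3 to 101, and platelet markers to 6.74 to 9.31 and 1.12 to 6.34 with Gp9 at 0 in all 7 libraries. Other lists were higher. Neutrophil markers, mainly S100a8 and S100a9, summed to 64.5 to 433 CPM in Smad4fl/fl and 170 to 826 in Smad4iko, epithelial markers to 101 to 367 and 36.0 to 179, NK cell markers to 4.82 to 166 and 1.12 to 72.2, and B cell markers to 10.6 to 36.6 and 27.2 to 142. In the non-cycling cells neutrophil markers stood at 136 to 581 and 624 to 2135 CPM. The part of these transcripts in the results was not tested.

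A small number of the selected cells carried large amounts of transcripts of other leukocytes. In 12 of the 470, the MHC class II gene H2-Aa reached 116 to 328 UMIs, while it reached at most 66 in the remaining cells, and 10 of the 12 had a UMI of the dendritic cell receptor Flt3. These 12 held 60.3% of the H2-Aa UMIs of all cycling cells. They came from Smad4fl/fl 1 (3 cells), Smad4fl/fl 3 (3 cells) and Smad4iko 1 (6 cells). Another 3, of which 2 were from Smad4iko 1 and 1 from Smad4iko 4, held 3308 to 7639 UMIs of the immunoglobulin light chain Igkc and 250 to 1069 of the plasma cell chain Jchain, 97.3% of the Igkc of the group. All 15 had at most 1 UMI of Marco and none was marked as a doublet by Scrublet, which marked 14 other cycling cells. Without these 15 cells the genotype difference in the cycling share, given below, was -0.63 percentage points in place of -0.61.

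**Figure D1:**
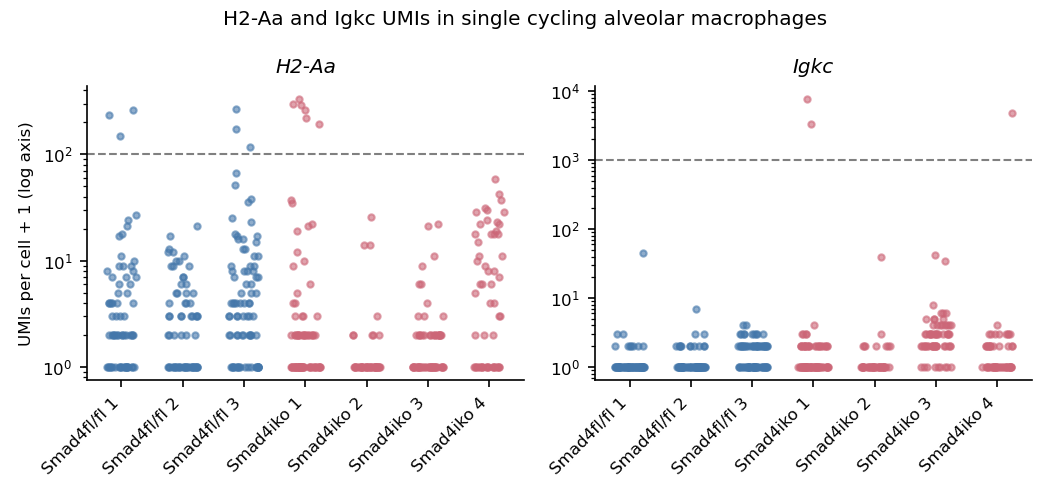
UMIs per cell of H2-Aa (left) and Igkc (right) on a log axis of UMIs plus 1, with 1 point for each of the 470 cycling alveolar macrophages, by library. The dashed lines mark 100 H2-Aa and 1000 Igkc UMIs, and 12 and 3 cells lie at or above them.

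The share of alveolar macrophages that cycled lay between 4.72 and 8.40% in the 7 libraries. It was 8.33, 8.40 and 6.61% in Smad4fl/fl 1 to 3 and 8.14, 4.72, 7.63 and 8.19% in Smad4iko 1 to 4, or 7.31% when all cells were pooled. These shares rest on 69, 69 and 82 cycling cells of 828, 821 and 1241 alveolar macrophages in Smad4fl/fl and on 82, 47, 65 and 56 of 1007, 995, 852 and 684 in Smad4iko. Smad4iko 2 lay below every other library, and the other 3 Smad4iko shares fell within the Smad4fl/fl range. Its exact Clopper-Pearson 95% interval, 3.49 to 6.23%, covers counting error only, as do all such intervals here. The means were 7.78 ± 1.02% (SD, n = 3) in Smad4fl/fl and 7.17 ± 1.65% (SD, n = 4) in Smad4iko. A difference of -0.61 percentage points was smaller than the spread between libraries (two-sided exact permutation test over 35 assignments, p = 0.657, adjusted p = 0.657 over 4 quantities). The smallest p this design allows is 0.0286. Without Smad4iko 2 the difference turned to 0.20 points.

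**Figure D2:**
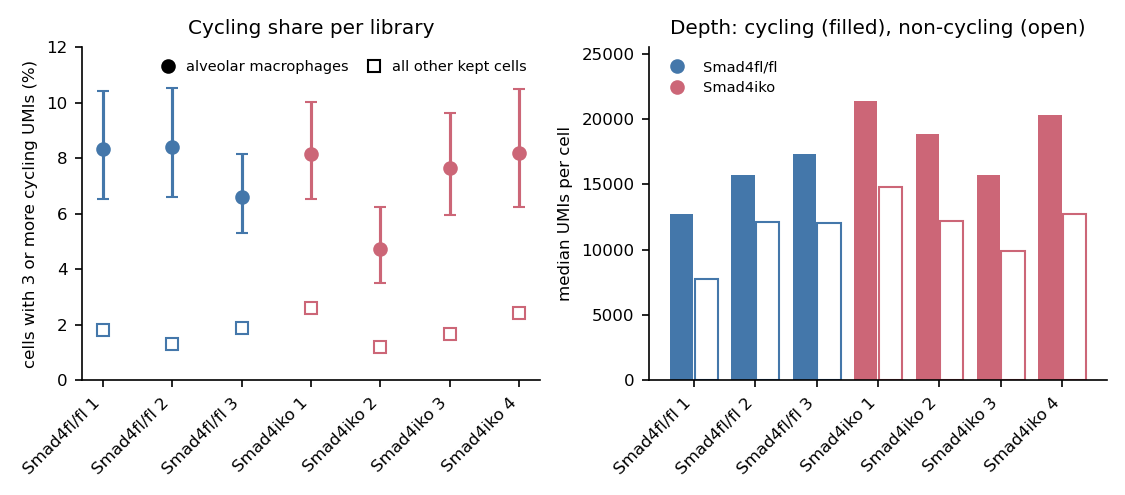
Left, percent of alveolar macrophages (circles, with exact 95% intervals) and of all other kept cells (open squares) that held at least 3 UMIs of the 4 cycling genes, by library. Right, median UMIs per cell of cycling (filled bars) and non-cycling (open bars) alveolar macrophages. Smad4iko 2 has the lowest share, and each filled bar is taller than its open neighbour.

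Cells with cycling transcripts were also counted where they served as background. Among the 44527 other kept cells, 812 met the same cycling term, 1.18 to 2.59% per library. Neutrophils, which do not divide in tissue, met it in 25 of 7033 cells (0.355%, median depth 3235 UMIs). B cells met it in 47 of 4539 (1.04%, 4003 UMIs) and interstitial macrophages in 27 of 672 (4.02%, 11997 UMIs). The alveolar macrophages were deeper than neutrophils and B cells. After each cell was thinned to 5000 UMIs, which left out 372 shallower alveolar macrophages, the share was 6.58, 6.44 and 4.46% in Smad4fl/fl and 4.93, 2.63, 5.88 and 6.35% in Smad4iko. Smad4iko 2 was again the lowest. Neutrophils of that depth stood at 0.753%, B cells at 2.40% and interstitial macrophages at 2.41%.

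Cycling cells were large by their RNA. Median depth in the Smad4fl/fl libraries was 12690, 15737 and 17280 UMIs per cycling cell, and in the Smad4iko libraries 21376, 18863, 15679 and 20332. The non-cycling cells of the same libraries had 7789, 12133 and 12035 and then 14762, 12184, 9897 and 12702. In every library the cycling cells were deeper, by 1.30 to 1.63 times. A selection that asks for more UMIs favours deeper cells, so this is a description. Their mitochondrial share was 3.88 to 5.70% against 4.83 to 7.53%. Thinned to 5000 UMIs, they held 2113 to 2222 genes per cell against 1988 to 2070. Between genotypes the median depth was 15236 ± 2336 (SD, n = 3) and 19062 ± 2480 UMIs (SD, n = 4), with overlapping libraries (exact permutation test, p = 0.143, adjusted p = 0.343).

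The strength of the cycling signal varied widely within the group. Over the 4 cycling genes, 5020 alveolar macrophages had 0 UMIs, 743 had 1, 195 had 2, 54 had 3, 46 had 4 and 370 had 5 or more. Just outside the threshold, cells with 2 UMIs measured 7.20 ± 6.75 CPM of Rrm2, the small subunit of ribonucleotide reductase, and 329 ± 53.6 CPM of Pcna, the replication clamp (SD over 7 libraries). Just inside, at 3 UMIs, Rrm2 was at 29.6 ± 61.1 and Pcna at 428 ± 225. All cycling cells together stood at 368 ± 117 and 628 ± 127, and the non-cycling cells at 2.21 ± 0.73 and 205 ± 15.1. Cells with 3 UMIs thus lay nearer to the non-cycling cells on Rrm2, but near the middle between non-cycling and all cycling cells on Pcna. On both genes their values overlapped those of cells with 2 UMIs.

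A phase was read from gene lists that the selection did not use. UMIs of an S phase list and of a G2M list, with Top2a, Mki67, Birc5 and Ube2c left out, were counted after thinning to 5000 UMIs, which 453 cycling cells allowed. A cell leaned to S when its S list count, relative to the mean over cycling cells, was the larger. By this measure 28 of 64, 33 of 64 and 49 of 80 cells leaned to S in Smad4fl/fl 1 to 3, or 43.8, 51.6 and 61.3%. In Smad4iko 1 to 4 there were 38 of 82, 23 of 46, 25 of 63 and 22 of 54, or 46.3, 50.0, 39.7 and 40.7%. Since the lean is centred on the cycling cells themselves, it splits them near the middle and says nothing of the absolute share in S. The phase calls of scanpy, a different scoring on unthinned cells that kept the selection genes in its G2M list, gave 113 S, 272 G2M and 85 G1 of the 470. By lean, Smad4fl/fl 3 had the highest S share, and the groups overlapped. The means of 52.2 ± 8.77% (SD, n = 3) and 44.2 ± 4.85% (SD, n = 4) differed by less than the spread between libraries (exact permutation test, p = 0.171, adjusted p = 0.343).

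Not all selected cells carried the rest of the programme. The 95th percentile of non-cycling cells was 9 S list UMIs and 12 G2M list UMIs of 5000, and 98 of the 453 (21.6%) lay within both limits. Their number was 14, 5 and 18 in Smad4fl/fl (21.9, 7.81 and 22.5%) and 30, 17, 6 and 8 in Smad4iko (36.6, 37.0, 9.52 and 14.8%). Smad4iko 1 and 2 had the highest shares and Smad4fl/fl 2 and Smad4iko 3 the lowest. These cells had a median of 4 UMIs over the 4 cycling genes, against 36 in the other 355. Conversely, 84 of 5603 non-cycling cells of that depth had at least 16 S list UMIs, the median of the cycling cells. The 355 cells made up 7.66, 7.45 and 5.21% of alveolar macrophages of that depth in Smad4fl/fl and 5.24, 3.05, 6.99 and 6.96% in Smad4iko, so Smad4iko 2 stayed lowest. The difference in means was then -1.22 points, and S leaning differed by -6.73 points.

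**Figure D3:**
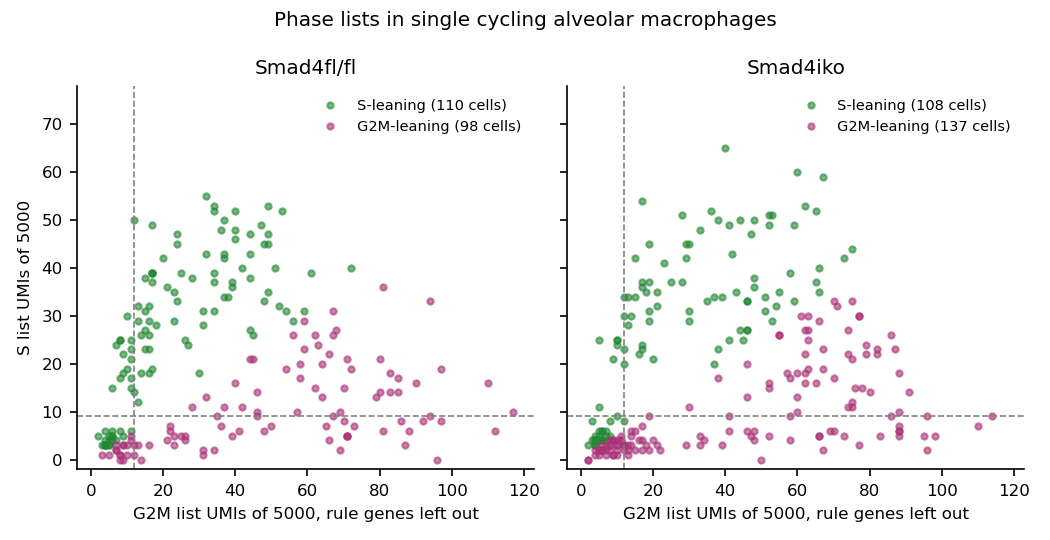
UMIs of the S list (vertical axis) against UMIs of the G2M list (horizontal axis) per cell at 5000 UMIs, for 208 cycling cells of Smad4fl/fl (left) and 245 of Smad4iko (right). Dashed lines mark the 95th percentile of non-cycling alveolar macrophages, 9 and 12 UMIs, and the 98 cells at or below both lie at the lower left. Cells leaning to S (green) and to G2M (purple) occur in both genotypes.

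Genes outside the phase lists also separated the leans, as a description. At a mean of at least 20 CPM in either, 6 of 6470 genes (0.0927%) were more than 2-fold higher in S-leaning cells in all 7 libraries and 7 (0.108%) in G2M-leaning cells. E2f1, the E2F factor that opens S phase, measured 117, 146 and 111 CPM in S-leaning cells of Smad4fl/fl and 80.5, 86.5, 148 and 135 in Smad4iko. In G2M-leaning cells it was at 20.7, 31.4 and 36.5 and then 30.7, 32.7, 31.1 and 43.0. It was higher in S-leaning cells of every library, by 2.62 to 5.66 times. The genes named for both leans were ranked by lowest ratio among those with at least 100 CPM, so not all pass 2-fold. After E2f1 came Dut, which clears dUTP, and the maintenance methyltransferase Dnmt1, at 2.18 to 3.77 and 1.89 to 3.16 times. Lig1, the DNA ligase of lagging strands, Zfp367 and Cdk2 followed, with lowest ratios of 1.83 to 1.86.

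In G2M-leaning cells, Ccnb1, the cyclin B that activates CDK1 for mitosis, measured 158, 208 and 155 CPM in Smad4fl/fl and 124, 103, 188 and 181 in Smad4iko. In S-leaning cells it was at 2.93, 33.9 and 19.7 and 29.4, 14.0, 28.1 and 20.6. Every library had at least 4.21 times more in the G2M-leaning cells. The kinetochore-associated gene Knstrn was 2.54 to 4.99 times higher and the spindle pole gene Aspm 2.37 to 6.65 times. Emp1, an epithelial membrane protein gene, stood beside them. It measured 287, 302 and 270 CPM in G2M-leaning cells of Smad4fl/fl and 196, 214, 207 and 175 in Smad4iko, against 41.1, 57.1 and 101 and 81.5, 77.2, 25.5 and 41.2 in S-leaning cells. The ratio was 2.40 to 8.10. Arl6ip1 and Reep4, genes of membrane proteins of the endoplasmic reticulum, were higher by at least 1.93 and 1.91 times.

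The genes of the selection define the group and are given as levels. Top2a, the topoisomerase that untangles replicated DNA, stood at 511, 661 and 638 CPM in the cycling cells of Smad4fl/fl 1 to 3 and at 506, 556, 763 and 902 in Smad4iko 1 to 4, against 2.60 to 5.46 in non-cycling cells. Smad4iko 3 and 4 were the highest. Mki67, the chromosome surface protein Ki-67, was at 480, 523 and 456 and at 418, 498, 530 and 585 CPM. Birc5 (survivin, of the chromosomal passenger complex) ran from 274 to 469 and Ube2c, the ubiquitin-conjugating enzyme of the anaphase complex, from 262 to 563. Marco, a scavenger receptor, was at 673, 566 and 399 CPM and at 228, 382, 411 and 440. Smad4iko 1 was the lowest and Smad4fl/fl 1 the highest for Marco. The chitinase-like secreted protein gene Chil3 ran from 5780 to 11821 CPM, Plet1 from 703 to 1352, Krt79 from 247 to 442, Atp6v0d2 from 534 to 665 and Siglecf from 68.7 to 108, and C1qa was at most 1.12.

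Promoters of the 4 cycling genes of the selection and of their mitotic partners Ccnb2 and Cdk1 are shown because their genes were high together in these cells and because promoters of mitotic genes are known for CCAAT boxes and for the cell cycle homology region. Each is the 150 bases before the start site on the gene's own strand, 5′ to 3′, from RefSeq on GRCm38.p6. Capitals mark the box CCAAT and the words TTTGAA and also TTCGAA on either strand, so that ATTGG reads as the first and TTCAAA as the second on the other strand, and a match is letters only and not a bound site. Top2a lies at chr11:99024190-99024339 (minus strand), Ube2c at chr2:164769779-164769928 (plus), Ccnb2 at chr9:70421555-70421704 (minus), Cdk1 at chr10:69352913-69353062 (minus), Mki67 at chr7:135716380-135716529 (minus) and Birc5 at chr11:117849087-117849236 (plus).
Top2a: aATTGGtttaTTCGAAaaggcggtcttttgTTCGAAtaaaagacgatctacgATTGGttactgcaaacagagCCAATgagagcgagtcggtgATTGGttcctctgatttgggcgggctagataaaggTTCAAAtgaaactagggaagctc
Ube2c: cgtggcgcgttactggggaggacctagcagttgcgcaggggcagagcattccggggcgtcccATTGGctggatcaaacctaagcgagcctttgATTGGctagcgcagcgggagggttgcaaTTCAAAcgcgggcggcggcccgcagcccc
Ccnb2: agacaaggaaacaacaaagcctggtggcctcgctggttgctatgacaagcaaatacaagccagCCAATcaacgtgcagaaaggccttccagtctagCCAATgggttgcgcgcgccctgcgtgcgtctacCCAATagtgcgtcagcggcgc
Cdk1: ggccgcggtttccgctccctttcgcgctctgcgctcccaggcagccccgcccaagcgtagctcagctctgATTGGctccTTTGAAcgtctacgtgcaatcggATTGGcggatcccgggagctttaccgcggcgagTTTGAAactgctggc
Mki67: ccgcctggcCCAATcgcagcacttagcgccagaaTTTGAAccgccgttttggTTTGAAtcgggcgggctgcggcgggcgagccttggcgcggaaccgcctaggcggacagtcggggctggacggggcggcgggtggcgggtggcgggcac
Birc5: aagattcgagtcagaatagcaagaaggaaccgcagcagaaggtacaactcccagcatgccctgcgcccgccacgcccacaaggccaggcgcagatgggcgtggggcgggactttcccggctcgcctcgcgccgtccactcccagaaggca

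The Top2a window held 4 CCAAT and 3 of the words TTTGAA or else TTCGAA, Cdk1 held 2 and 2, Ube2c 2 and 1, Ccnb2 3 and 0, Mki67 1 and 2, and Birc5 0 and 0. Of 27025 promoters in the table, 25.3% held at least 1 CCAAT and 6.41% at least 2, while 9.89% held the word TTTGAA or the word TTCGAA. Among 5246 promoters of genes expressed at the level used here, 10.6% held at least 2 CCAAT. Of 246 matched promoters of the 299 genes more than 2-fold higher in cycling cells in all 7 libraries outside the selection, 72 (29.3%) did. Of 15 matched promoters of the mitotic list below, 12 (80%) did, and of 22 each from the replication and spindle lists, 7 (31.8%) did. These shares are descriptions.

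The comparison of cycling with non-cycling cells of the same library shows what the selected cells carry. It is a description, since the selection used these cells. Of 6445 genes with a mean of at least 20 CPM in either, 303 (4.7%) were more than 2-fold higher in cycling cells in all 7 libraries, and none (0%) was below 0.5-fold in all 7. By direction alone, 1576 (24.5%) were higher and 888 (13.8%) lower in all 7, and the median ratio over all genes was 1.03.

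Replication genes were raised as a body. Of 25 in a list of licensing and DNA synthesis, 24 were more than 2-fold higher in all 7 libraries, with a median ratio of 5.68. Rrm2 measured 223, 435 and 411 CPM in cycling cells of Smad4fl/fl and 285, 243, 462 and 519 in Smad4iko, against 1.21 to 3.14 in non-cycling cells. It was lowest in Smad4fl/fl 1 and Smad4iko 2 and still at least 85.5 times the non-cycling level in each library. Pcna was at 451, 807 and 736 and at 553, 522, 626 and 703 CPM, against 186 to 228, which is 2.25 to 3.96 times. The helicase genes Mcm2 to Mcm7 and the licensing factors Cdc6 and Cdt1 lay between 2.44 and 17.3 times. Slbp, which binds the end of histone mRNA, was the exception to the 2-fold level, at 1.83 to 2.86 times.

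Mitotic genes had the larger ratios, from near absence in non-cycling cells. Of 20 cyclins, kinases and anaphase genes, 19 reached the level and 18 of these were more than 2-fold higher in all 7 libraries, with a median ratio of 42.3. Cdk1, the mitotic kinase, measured 198, 258 and 174 CPM in Smad4fl/fl and 143, 145, 296 and 274 in Smad4iko, against 2.60 to 8.68. Smad4iko 1 and 2 were the lowest and Smad4iko 3 and 4 the highest. Ccnb2 ran from 148 to 245 CPM against 2.29 to 5.97, and Cks2, a CDK subunit, from 293 to 608 against 87.3 to 179. Ccna2, the cyclin of S phase and G2, stood at 113 to 273 CPM against 0 to 1.21. Pttg1 (securin), which guards sister chromatid cohesion, did not follow, at 0.88 to 3.46 times.

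All 25 genes of the spindle, kinetochore and condensin list were more than 2-fold higher in every library, with a median ratio of 49.3. Smc4, of condensin, measured 441, 455 and 428 CPM in Smad4fl/fl and 368, 373, 577 and 602 in Smad4iko, against 61.7 to 94.9. Prc1, which bundles the central spindle, ran from 177 to 306 against 1.78 to 4.90, and Nusap1 from 151 to 343 against 0.50 to 1.70. The genes with the highest lowest ratio outside the selection were Iqgap3, Ska1, Ccna2, Esco2, Nuf2, Bub1, Nusap1, Kif11, Hist1h2ap, H1f5, Cenpf and Rrm2. Kif11, the spindle motor Eg5, stood at 119 to 233 CPM against 0.53 to 1.45, and Esco2, the cohesin acetyltransferase, at 49.1 to 167 against 0 to 0.36.

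The chromatin list had 12 of its 15 symbols in the files. All 12 were higher in all 7 libraries and 10 were so by more than 2-fold, with a median ratio of 3.20. Hmgb2, a DNA-bending chromatin protein, measured 1086, 1920 and 1267 CPM in Smad4fl/fl and 1266, 1298, 2172 and 2147 in Smad4iko, against 137 to 210. Stmn1, a tubulin-binding protein, ran from 478 to 1274 CPM against 20.7 to 57.8. Tubb5 and Tuba1b, the main tubulins, were 5.03 to 7.57 and 4.00 to 4.87 times higher.

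Regulators of S phase entry split. Of 17 G1 cyclins, E2F factors and CDK inhibitors at level, 7 were more than 2-fold higher in all 7 libraries, 12 were higher and 1 was lower, with a median ratio of 2.44. The E2F repressors E2f7 and E2f8 stood at 21.2 to 68.3 and 36.6 to 85.9 CPM, against at most 0.73 in non-cycling cells. Ccne1 and Ccne2 were at least 9.20 and 7.39 times higher. Ccnd2, the D cyclin that was most abundant in this list, went the other way. It measured 278, 289 and 282 CPM in Smad4fl/fl and 346, 326, 218 and 334 in Smad4iko, against 440 to 552 in non-cycling cells, 0.40 to 0.70 times. Cdkn1a (p21), the CDK inhibitor, was not lower in cycling cells, at 515 to 794 CPM and 1.02 to 2.02 times the non-cycling level. E2f7, E2f8, Ccne1 and Ccne2 were named after their values were seen.

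The macrophage programme made up a somewhat lower share of the UMIs. Cycling cells held 1.30 to 1.63 times more UMIs per cell, so a lower share need not mean fewer UMIs per cell. Of 23 identity genes outside the selection, none was 2-fold away in all 7 libraries, and the median ratio was 0.78. In all 7, 15 were lower and 2 higher, where 13.8% of all genes were lower and 24.5% higher. The surfactant-handling and lipid genes Lpl and Abcg1 measured 1235 to 1726 and 1011 to 1370 CPM, 0.69 to 0.80 and 0.78 to 0.98 times. Ear2, a ribonuclease, was 0.51 to 0.76 times the non-cycling level, and Mrc1 0.64 to 0.79. Ctsk, the protease cathepsin K, was 1 of the 2 that were higher, at 620, 795 and 527 CPM in Smad4fl/fl and 663, 443, 540 and 312 in Smad4iko, 1.27 to 2.34 times (named after its values were seen).

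**Figure D4:**
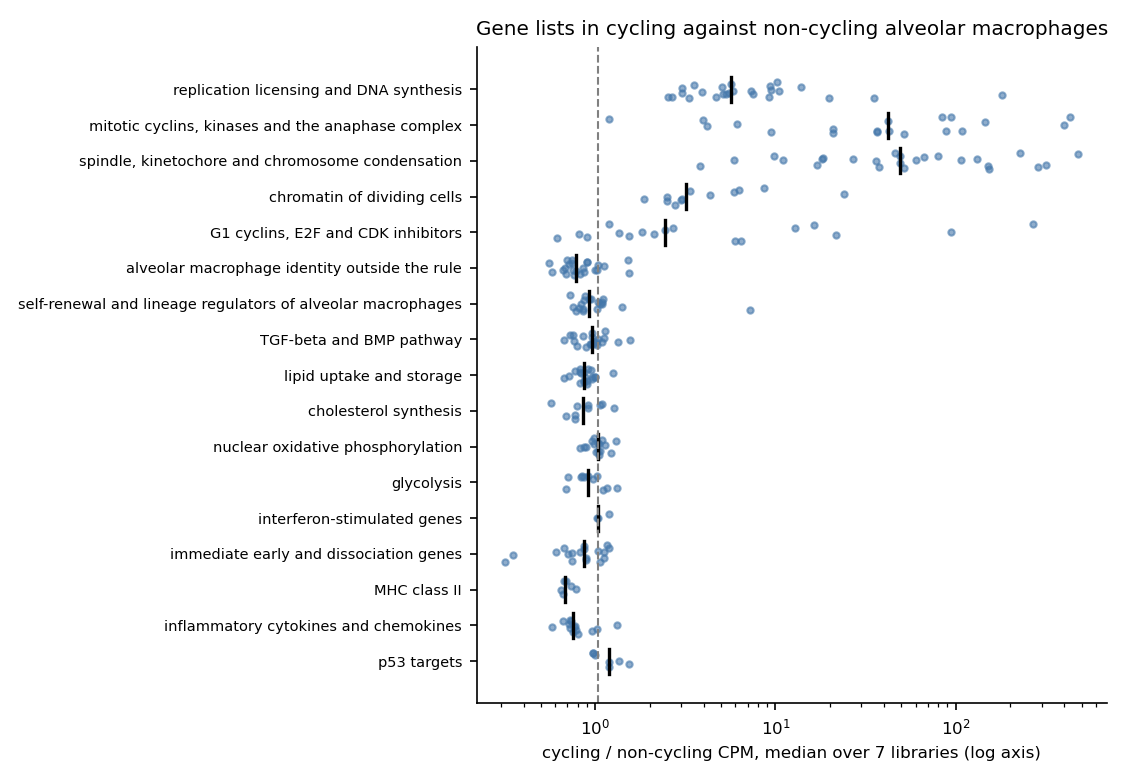
Ratio of CPM in cycling to non-cycling alveolar macrophages, median over 7 libraries, on a log axis. Each point is a gene at a mean of at least 20 CPM, black bars are list medians and the dashed line is the median of all genes, 1.03. The lists of replication, mitosis, spindle and chromatin have medians of 3.20 to 49.3, the regulators of S phase entry 2.44, and the identity genes 0.78.

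Regulators of alveolar macrophage self-renewal were mostly near or somewhat below the non-cycling level. Of 19 at level, 1 was higher and 7 were lower in all 7 libraries, with a median ratio of 0.92. Of all genes, 24.5% were higher and 13.8% lower in all 7. The GM-CSF receptor gene Csf2ra was at 157 to 228 CPM, 0.69 to 0.83 times. The transcription factor genes Bhlhe40, Klf4, Spi1 and Cebpb were at 0.71 to 0.99, 0.96 to 1.11, 0.85 to 1.08 and 0.75 to 1.00 times. Myc, known to drive growth, was at 18.5 to 62.0 CPM, 0.88 to 1.64 times, and overlapped the non-cycling range of 18.5 to 51.9. Ezh2, the H3K27 methyltransferase, was the 1 that was higher, at 145 to 246 CPM and 6.07 to 10.0 times. Csf2ra, Myc and Ezh2 were named after their values were seen.

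No gene of the metabolic lists was 2-fold away in all 7 libraries. Of all genes, 4.7% were above 2-fold and 0% below 0.5-fold in all 7. Median ratios were 0.87 for lipid uptake (20 genes), 0.85 for cholesterol synthesis (10 genes), 1.04 for oxidative phosphorylation (16 genes) and 0.91 for glycolysis (11 genes). By direction, 7, 1, 2 and 4 genes of these lists were lower in all 7 libraries, as were 13.8% of all genes. Those higher in all 7 numbered 0, 0, 3 and 3, where 24.5% of all genes were higher. Aldoa, the glycolytic aldolase, was at 266 to 401 CPM against 478 to 574, 0.49 to 0.77 times, the lowest of the glycolytic genes named here. Gapdh was at 0.80 to 1.00 and Plin2, the lipid droplet coat, at 0.74 to 0.99. The p53 targets had a median ratio of 1.19 (7 genes) and 3 interferon-stimulated genes 1.04.

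Genes of tissue dissociation were lower in many cases. Of 18 immediate early and heat shock genes, 10 were lower and 1 higher in all 7 libraries, where 13.8% of all genes were lower in all 7, with a median ratio of 0.87. Hspa1b, an inducible HSP70, ran from 32.3 to 128 CPM in cycling cells, against 85.5 to 297 in non-cycling cells. It was 0.22 to 0.52 times the non-cycling level. Calr, the chaperone calreticulin, was at 0.37 to 0.64 times. Of 14 cytokine genes 2 were lower in all 7 libraries, a share near that of all genes, and their median ratio was 0.76. Of the 6 MHC class II genes at level none had 1 direction. H2-Aa measured 844, 171 and 710 CPM in cycling cells of Smad4fl/fl and 893, 65.2, 87.0 and 461 in Smad4iko, high in the 3 libraries that held the 12 cells described above. Non-cycling cells had 453, 360 and 516 and 255, 148, 174 and 694.

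Genes of the TGF-beta and BMP pathway were near the non-cycling level, with a median ratio of 0.96 over 21 genes. The ligand gene Tgfb1 was at 134 to 315 CPM, 0.85 to 1.07 times, and the receptor genes Tgfbr1 and Tgfbr2 at 126 to 193 and 123 to 184 CPM. Among the mediators, Smad1 was 0.96 to 1.44 and Smad2 0.89 to 1.42 times. The feedback gene Skil was lower in all 7 libraries, at 0.69 to 0.84 times. Tgfbi, a secreted matrix protein named for its induction by TGF-beta, was higher in all 7. It measured 563, 462 and 412 CPM in cycling cells of Smad4fl/fl and 345, 353, 348 and 400 in Smad4iko, against 361, 292 and 266 and 228, 244, 202 and 259, a ratio of 1.45 to 1.73.

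The genotypes were compared next, over the 3 and 4 libraries. Smad4 (chromosome 18, 73639009 to 73703780, minus strand, mm10) measured 40.5, 42.8 and 39.3 CPM in the cycling cells of Smad4fl/fl and 31.6, 44.9, 29.0 and 37.7 in Smad4iko, from 32 to 63 UMIs per library. Smad4iko 2 was the highest of all 7, so the groups overlapped. The log2 difference was -0.26 ± 0.19 (SE; edgeR quasi-likelihood test, adjusted p = 0.947). In non-cycling alveolar macrophages it measured 46.8, 41.1 and 45.8 and then 41.8, 36.7, 28.5 and 33.3 CPM. All kept cells together had 78.5, 86.8 and 86.6 and then 61.3, 54.4, 41.8 and 55.8 CPM with no overlap. Which exons are floxed is not given in the sources used here, and UMIs from a 3' end outside the deleted part check nothing about the deletion.

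No gene passed between the genotypes in cycling cells. Of 8527 genes tested with edgeR, 0 (0%) had an adjusted p under 0.05, 430 (5.04%) had an unadjusted p under 0.05 and 572 (6.71%) had groups that did not overlap. DESeq2 called 8, of which Igkc, Iglc2, Fcgrt, Ang4 and H4c4 were higher in Smad4iko and Pianp, Klra3 and mt-Cytb lower. The 3 cells with at least 1000 Igkc UMIs, all in Smad4iko, held nearly all of the Igkc. Whether the genotype effect differed between cycling and non-cycling cells was tested with limma on the difference within each library, and 0 of 8527 genes (0%) passed, with 466 at an unadjusted p under 0.05.

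The medians of 5 cell cycle lists differed little between genotypes. Replication genes had a median log2 difference of -0.11 (25 genes), mitotic genes 0.07 (20), spindle genes 0.06 (25), chromatin genes -0.02 (12) and regulators of S phase entry 0.03 (18), against -0.01 over all genes tested. In none of these 5 lists did a gene reach an unadjusted p under 0.05. The S and G2M phase lists, selection genes included, had medians of -0.03 (43 genes) and 0.01 (54). In each of these 2, 1 gene had an unadjusted edgeR p under 0.05. Top2a and Mki67 are genes of the selection, which bounds their levels in both groups, so their differences are no test of cycling. The listed genes were measured in cells chosen by such genes, so the list medians are no test of cycling either. Top2a had a log2 difference of 0.11 ± 0.19 (SE; edgeR adjusted p = 0.985) and Mki67 of 0.00 ± 0.13 (edgeR adjusted p = 0.999). Both turned below 0 when Smad4iko 3 and 4 were left out, to -0.20 and -0.10.

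Pianp and Klra3 were close to absent in the alveolar macrophages of Smad4iko. Pianp, whose product binds the PILR-alpha receptor, gave 13, 49 and 95 UMIs in the control cycling cells and 0, 1, 0 and 0 in those of Smad4iko, or 12.5, 42.8 and 63.2 against 0, 1.12, 0 and 0 CPM. Klra3, of the Ly49 receptor family whose members are near-identical in sequence so that reads may be shared between them, measured 11.6, 51.5 and 30.6 CPM and then 0 in all 4. Each Smad4fl/fl library exceeded all Smad4iko libraries, and Smad4fl/fl 1 was the lowest of its group for both. The edgeR adjusted p was 0.0527 for Pianp and 0.189 for Klra3, which was at least 54.3-fold lower when the 4 Smad4iko libraries together are set to the floor of 3 counts. In non-cycling alveolar macrophages these 2 were the only genes of 11714 (0.0171%) that passed (edgeR adjusted p = 0.00874 and 0.0155).

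Outside alveolar macrophages the genes differed in pattern. B cells had 5.33, 14.5 and 15.7 CPM of Pianp in Smad4fl/fl and 0 in all 4 Smad4iko libraries, and all kept cells other than alveolar macrophages 9.57, 16.4 and 18.2 against 0.38 to 0.64. Neutrophils of Smad4fl/fl 1 were at 0 for Pianp. Klra3 was present in other cells of Smad4iko, at 19.2, 8.20, 21.6 and 21.1 CPM against 5.99, 56.3 and 68.9 in Smad4fl/fl, so these groups overlapped. Both genes lie on chromosome 6, as does the Rosa26 locus (113067428 to 113077333) that carries creERT2. Pianp (124996694 to 125003096, mm10) starts 11.9 Mb and Klra3 (130323289 to 130337574) 17.3 Mb from it. Whether the linked region bears on their levels was not tested. Acod1, which makes itaconate in activated macrophages, came next by p, at 13.5, 9.60 and 12.6 CPM against 2.51, 3.37, 1.81 and 1.75 (edgeR adjusted p = 0.189). These 3 genes were named after their values were seen.

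Among genes with at least 50 CPM and no overlap, those with the smallest unadjusted p are given as values and not as calls, since each had an edgeR adjusted p of 0.598 or more. Fcgrt, the neonatal Fc receptor that recycles IgG and albumin, measured 125, 127 and 130 CPM in Smad4fl/fl and 191, 220, 218 and 209 in Smad4iko. The 3 controls were nearly equal and all 4 Smad4iko libraries lay well above them, with a log2 difference of 0.66 ± 0.12 (SE). Non-cycling cells had 163, 194 and 176 against 229, 271, 291 and 265 CPM. Ang4, an angiogenin-family ribonuclease, was at 275, 226 and 206 against 365, 360, 447 and 465 CPM, a log2 difference of 0.74 ± 0.15 (SE), and Ear6, another ribonuclease of the eosinophil family, at 45.3, 37.5 and 54.6 against 72.2, 94.4, 86.1 and 117. For both, Smad4iko 4 was the highest. Genes of these ribonuclease families are close copies of each other, so their counts are uncertain. Slpi, a secreted protease inhibitor, had a log2 difference of 0.51 ± 0.13 (SE).

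The remaining pair of higher genes were replication-dependent histones. H4c4 measured 50.1, 31.4 and 32.6 CPM in Smad4fl/fl and 84.7, 82.0, 74.3 and 145 in Smad4iko, and H2ac8 measured 65.5, 123 and 59.9 against 174, 136, 180 and 362. In non-cycling cells neither exceeded 4.69 CPM. Smad4iko 4 was the highest for both genes. A lack of overlap between the groups was a condition for naming them, and 6.71% of all genes tested had it. Histone genes are near-identical copies, so their counts are uncertain. The Smad4iko minus Smad4fl/fl difference in the cycling cells was greater than that in non-cycling cells for H2ac8 by a log2 of 1.49 ± 0.53 (SE), which did not pass (limma adjusted p = 0.842).

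On the lower side, mt-Cytb and mt-Nd5, mitochondrially encoded subunits of the respiratory chain, were 0.44 and 0.43 lower on the log2 scale in Smad4iko. Transcripts of mt-Cytb stood at 5039, 5015 and 5378 CPM against 3734, 3880, 4380 and 3798 with no overlap, and the mitochondrial share of UMIs overlapped between groups. Chka, choline kinase, was at 492, 551 and 387 against 268, 363, 222 and 138 CPM and was lowest in Smad4iko 3 and 4. Emp1 was at 202, 179 and 172 against 137, 147, 141 and 123. The log2 difference of Emp1 was -0.48 ± 0.14 (SE). For the genes of this paragraph too, a lack of overlap was a condition for naming them. Cd24a and Trib1 had log2 differences of -0.66 and -0.60.

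**Figure D5:**
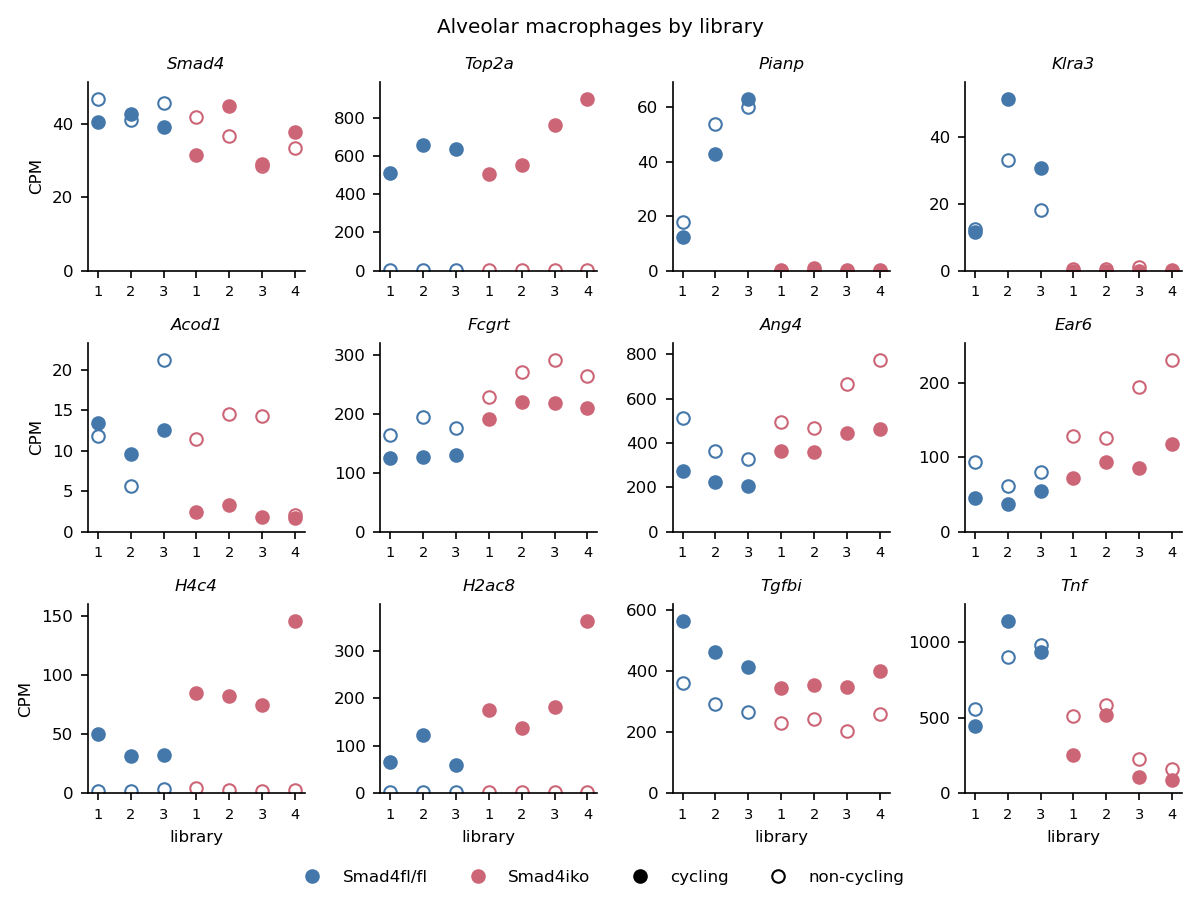
CPM of 12 genes in cycling (filled) and non-cycling (open) alveolar macrophages, by library, with Smad4fl/fl in blue and Smad4iko in red. Smad4 overlaps between the groups, Pianp and Klra3 are near 0 in Smad4iko, and H4c4 and H2ac8 are near 0 in all non-cycling cells.

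In the TGF-beta and BMP list, 24 genes were tested and 0 passed. On average 16 were lower and 8 higher in Smad4iko, with a median log2 difference of -0.15. The 3 with an unadjusted edgeR p under 0.05, which 5.04% of all genes tested had, were all lower in Smad4iko. Tgfbi, with the levels given above, had every Smad4iko library below every Smad4fl/fl library and a log2 difference of -0.46 ± 0.14 (SE; edgeR adjusted p = 0.927). Pmepa1, an inhibitor of the pathway that it also responds to, measured 148, 106 and 93.1 against 73.7, 40.4, 57.1 and 92.0 CPM, with a log2 difference of -0.85. Smurf2, a ubiquitin ligase for SMADs, was at 61.6, 75.9 and 47.2 against 44.6, 32.6, 46.2 and 50.8 CPM and overlapped. Smad7, an inhibitory SMAD that also responds to the pathway, ran from 20.6 to 43.3 CPM in Smad4fl/fl and from 19.6 to 39.0 in Smad4iko, and overlapped. Pmepa1, Smurf2 and Smad7 were named after their values were seen.

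Inflammatory genes were lower on average in Smad4iko, and this moved with 2 libraries. Of 14 tested, 13 were lower and 0 passed, with a median log2 difference of -0.71 against -0.01 over all genes tested. Tnf measured 446, 1140 and 937 CPM in Smad4fl/fl and 252, 520, 110 and 84.1 in Smad4iko (log2 difference -1.84, edgeR adjusted p = 0.927). Cxcl2 was at 2962, 6555 and 5089 against 2949, 6253, 1082 and 1052 CPM. Smad4iko 3 and 4, the libraries apart on the first principal component, were the lowest of all 7 for both, and Smad4iko 2 lay within the control range for both. For Tnf without them the log2 difference was -1.15. Immediate early genes had a median of -0.32, with 14 of 18 lower. In edgeR, 3 of the 18 had an unadjusted p under 0.05, as did 5.04% of all genes tested. Smad4iko 3 and 4 were also the lowest for Egr1 (92.5 and 285 CPM) and Junb (508 and 428), but not for Fos and Dusp1.

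Identity genes leaned the other way, with 17 of 23 higher in Smad4iko, a median log2 difference of 0.12 and 0 passing. Ear1 was at 311, 416 and 401 against 459, 529, 706 and 785 CPM with no overlap, and Fabp4, a fatty acid binding protein, at 143, 96.0 and 140 against 332, 365, 211 and 133 with Smad4iko 4 inside the control range. Among self-renewal genes 9 were higher and 11 lower, with a median of -0.02. Klf4 was at 276, 282 and 273 against 301, 379, 321 and 396 CPM (edgeR adjusted p = 0.927), with no overlap. Lists of lipid uptake, cholesterol synthesis, oxidative phosphorylation, glycolysis and p53 targets had medians between -0.09 and 0.10. MHC class II stood at -0.47 over 7 genes and interferon-stimulated genes at -0.21 over 5, with 0 passing in any of them.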

How the data were processed

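UMI counts per gene and barcode were read as the authors deposited them. Per the file headers they were made with Cell Ranger 6.1.1, and the submitters' processing notes name fastp, UMI-tools and build mm10. Deposited barcodes had at least 500 UMIs. Free RNA was not corrected, and Scrublet (scanpy 1.11.5, expected rate 6%) marked doublets, which were kept.

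UMIs were summed per library over cycling and over non-cycling cells. Genotypes were compared with edgeR 4.0.16 (filterByExpr, TMM, quasi-likelihood test, Benjamini-Hochberg, threshold 0.05) and, as an alternative, DESeq2 1.42.0. The genotype effect in cycling against non-cycling cells was tested with limma 3.58.1 on log2 CPM differences (prior count 2). Shares were compared by exact permutation of the 7 libraries. Scripts were tested on simulated counts.

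The members and gene lists were chosen with earlier results of these data known. Genes named by rule were Smad4 and the selection genes, the 4 most abundant of each list, the 12 with the highest or lowest cycling ratio each way (at least 50 CPM), the 6 each way that separated the leans (at least 100 CPM), and the 6 each way by unadjusted p without overlap between genotypes (at least 50 CPM; predicted, Rik and immunoglobulin genes left out).

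Replicate numbers in the titles were not used to pair the samples in the main tests. Same-numbered libraries deviated together with correlations of 0.22, -0.05 and 0.04, and libraries of different number with -0.26 to 0.18. So few pairs cannot exclude a pairing.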

Additional observations from a re-analysis of the deposited data

Results flagged for a closer look

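In 4 of 31 quantities examined over the 4 Smad4iko libraries, 1 library lay far from the other 3. Chance flags about 1 in 20 independent groups. These quantities share the same libraries, and some genes were picked by their genotype values. The count of 4 therefore cannot be set against that rate. The cycling share of alveolar macrophages was 4.72% in Smad4iko 2 and 7.63 to 8.19% in the others. H4c4, a histone H4 gene, was at 145 CPM in the cycling cells of Smad4iko 4 and at 74.3 to 84.7 in the others. Tgfbi was at 400.4 CPM in Smad4iko 4 and at 345 to 353 in the others. Pianp was at 1.12 CPM in Smad4iko 2, which is 1 UMI, and at 0 in the others, where any single UMI would be flagged.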

How the results depend on the processing

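The genotype difference in the cycling share was below 0 in all alternatives but 1: leaving out 1 library at a time gave -1.20 to 0.20 percentage points, and without Smad4iko 2 it was 0.20. The S-leaning difference stayed below 0, at -12.2 to -3.47 points over the same omissions. edgeR calls between genotypes were 0 with all libraries and 0 to 2 with 1 left out, the 2 being Pianp and Klra3 without Smad4fl/fl replicate 1. DESeq2 gave 8 calls and edgeR with no filter on low counts gave 4. Equal numbers of cells per library, doublets removed, a stricter cell filter, and a cycling term of at least 5 UMIs gave 1 call each, Pianp. With the replicate block 5 genes passed: Hbb-bs, Hba-a1 and Iglc2 higher, Pianp and Klra3 lower. The test of whether the genotype effect differed between cycling and non-cycling cells gave 0 calls under every alternative, the replicate block included.

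Small log2 differences of selection genes changed sign. With a covariate for Smad4iko 3 and 4 they were -0.013 for Atp6v0d2, -0.20 for Siglecf, -0.040 for Chil3, -0.20 for Top2a and -0.10 for Mki67, and with those libraries left out -0.012, -0.20, -0.039, -0.20 and -0.10 (added after seeing the data, as were the settings on H2-Aa, Igkc and phase-list levels). With the replicate block they were -0.012 for Atp6v0d2, -0.010 for Siglecf, -0.040 for Top2a and -0.057 for Mki67. With 1 library left out they ran from -0.028 to 0.066 for Atp6v0d2, -0.049 to 0.16 for Siglecf, -0.022 to 0.24 for Top2a and -0.045 to 0.094 for Mki67. The cause was not tested.

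With 47 to 82 cycling cells per library, Smad4 rested on 32 to 63 UMIs.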

Other observations

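Several histone genes other than H4c4 and H2ac8 are given here, chosen after their values were seen. Hist1h2ap, an H2A gene, measured 19.3, 375 and 74.5 CPM in the cycling cells of Smad4fl/fl and 126, 91.0, 145 and 196 in Smad4iko. H3c6, an H3 gene, was at 23.1, 16.6 and 11.3 against 27.1, 29.2, 24.5 and 63.1 CPM with no overlap. The linker histone H1f5 ran from 26.2 to 174 CPM. Smad4iko 4 was the highest for H3c6, and Smad4fl/fl 2 for Hist1h2ap. H1f4, H2ac4 and H3c3 were higher on average in Smad4iko with overlap, by 0.63, 0.66 and 0.97 on the log2 scale, and all had an edgeR adjusted p of 0.927. H2bc4, an H2B gene, was lower in cycling cells in all 7 libraries, at no more than 73.7 CPM against 109 to 151 in non-cycling cells. The linker histone H1f2 was lower in 6 of 7, at 0.36 to 1.17 times the non-cycling level, and its genotype difference was 0.55 on the log2 scale with overlap.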
